A study of Mus musculus with 16 samples.

Results

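The spleen chromatin of fed mice and of fasting mice was compared as 2 lists of ATAC-seq peaks, 1 for each state. The members were the regions of the fed spleen list and of the fasting spleen list, each a unique pair of chromosome start and end with its strongest summit, that had a q-value under 0.01, and the comparison was repeated at q under 1e-06. They numbered 202948 in fed and 225899 in fasting spleen, or 428847 of the 2640607 regions that passed the same threshold in all 16 libraries, and at q under 1e-06 they numbered 68036 and 68877. A region was called fasting-only or fed-only when no peak listed for the other state overlapped it by 1 bp. The study profiled open chromatin in 8 tissues (spleen, kidney, lung, heart, liver, muscle and both white and brown adipose) of male C57BL/6 mice that were either fed or had been without food for a day. Tissue powder from several animals of a state was pooled before nuclei were isolated, so each state of each tissue was 1 library, the organs of a state came from the same animals, and no replicate error could be given. Every difference below therefore compares those 2 libraries, with no p-value, and the exact intervals cover counting error only.

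The spleen filters blood and houses a large store of lymphocytes. Its white pulp holds B cell follicles and T cell zones, while its red pulp holds macrophages that take up aged red cells and recycle their haem iron, together with monocytes, sinus endothelium and, in mice, red cell precursors. In ATAC-seq a transposase cuts DNA that is not wrapped in nucleosomes, so a peak marks a promoter or an enhancer that is open in at least part of the cells. In a whole organ, fewer cells of a type and a more closed site within each cell cannot be told apart. Fasting raises glucocorticoids and shifts fuel use toward fatty acids, and lymphocytes are known to move between organs when food is withheld.

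The spleen label was checked against lymphocyte markers. The strongest region at the promoter of Cd79a, a signalling chain of the B cell receptor, ranked at 88.6 with 65 tags when fed and at 92.3 with 85 tags when fasting. Rank is the percentile of a region's p-value within its own list, with 0 for a promoter at which no region was listed, and a tag count is the number of sequenced cut sites piled up at the summit, recovered from the listed fold and p-value. In the 14 libraries of the other tissues Cd79a reached at most 73.5, in fed lung, and was at 0 in 9 of them. All 16 genes of the B cell list and all 20 genes of the T cell list had a promoter region in both spleen states, with median ranks of 92.0 and 88.4 in fed and 94.0 and 90.1 in fasting. Of 9 pancreas acinar genes, whose tissue touches the spleen, 4 were listed in each state and the median rank was 0, with the defining marker Cpa1 at 0 in both, but Rbpjl, a transcription factor of acinar cells, ranked at 95.6 and 94.7 with 87 and 78 tags, and the elastase gene Cela1 at 88.0 and 88.7. The adipocyte gene Adipoq was at 0 at its promoter in both states, while loci near it had 79 and 58 and 61 and 42 tags, and Plin1, a protein of the lipid droplet, ranked at 80.7 and 72.7 with 30 and 24 tags. Both libraries had a similar depth, with a genome background of 3.21 tags in fed and 3.35 tags in fasting spleen. The fasting list ended before q reached 0.01, with its weakest region at 12 tags, whereas the fed list went on to 11 tags.

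The sequences that carried the comparisons are shown first. Each is the plus strand of GRCm38 over 201 bases around a summit, taken from the RefSeq genome, in lower case with the letters of the searched motifs in capitals. The first group holds regions listed in 1 state only, named by the nearest protein-coding gene.
fasting-only, Tbc1d23 (chr16:57215619-57215819): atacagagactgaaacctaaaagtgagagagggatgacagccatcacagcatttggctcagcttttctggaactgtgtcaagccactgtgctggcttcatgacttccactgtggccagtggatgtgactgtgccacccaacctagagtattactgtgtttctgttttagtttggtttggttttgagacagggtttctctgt
fasting-only, Zc3h12c (chr9:52278142-52278342): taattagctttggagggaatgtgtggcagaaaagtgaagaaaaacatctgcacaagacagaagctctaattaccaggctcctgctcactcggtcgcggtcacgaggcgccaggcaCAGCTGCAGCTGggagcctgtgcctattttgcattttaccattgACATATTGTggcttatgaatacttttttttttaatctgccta
fed-only, 6030458C11Rik (chr15:12795478-12795678): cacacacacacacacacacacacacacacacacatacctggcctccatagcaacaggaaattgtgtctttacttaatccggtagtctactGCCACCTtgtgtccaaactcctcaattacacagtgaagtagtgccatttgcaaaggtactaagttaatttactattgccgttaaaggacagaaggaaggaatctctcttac
fed-only, Gm15517 (chr7:44277318-44277518): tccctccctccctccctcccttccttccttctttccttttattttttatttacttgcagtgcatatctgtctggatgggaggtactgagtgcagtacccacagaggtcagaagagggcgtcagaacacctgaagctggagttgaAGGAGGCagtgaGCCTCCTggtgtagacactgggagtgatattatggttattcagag
In the Zc3h12c window the capitals mark a pair of E-box matches (CAGCTG) that adjoin and a glucocorticoid receptor match (ACANNNTGT, a short palindromic form bound by steroid receptors). In the fed-only windows they mark the CTCF core (AGGNGGC, or its reverse complement), part of the site of the factor that anchors chromatin loops. The Tbc1d23 window held none of the 16 motifs searched.

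The second group holds regions of both states that the results below turn on.
higher in fasting, Babam2 (chr5:31905841-31906041): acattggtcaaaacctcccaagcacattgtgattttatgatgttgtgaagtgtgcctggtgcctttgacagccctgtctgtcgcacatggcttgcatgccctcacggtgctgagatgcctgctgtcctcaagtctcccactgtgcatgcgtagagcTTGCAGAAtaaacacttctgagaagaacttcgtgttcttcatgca
lower in fasting, Cfap44 (chr16:44484160-44484360): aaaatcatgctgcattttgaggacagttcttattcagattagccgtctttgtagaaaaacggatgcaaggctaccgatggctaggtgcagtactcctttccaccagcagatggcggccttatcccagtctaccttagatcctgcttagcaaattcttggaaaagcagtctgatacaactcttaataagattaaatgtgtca
lower in fasting, Bloc1s4 (chr5:36742568-36742768): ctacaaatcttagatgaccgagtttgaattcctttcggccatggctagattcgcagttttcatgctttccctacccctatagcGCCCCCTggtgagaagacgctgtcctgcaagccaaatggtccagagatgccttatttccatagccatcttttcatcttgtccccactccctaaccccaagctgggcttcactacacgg
higher in fasting, Fkbp5 upstream (chr17:28517991-28518191): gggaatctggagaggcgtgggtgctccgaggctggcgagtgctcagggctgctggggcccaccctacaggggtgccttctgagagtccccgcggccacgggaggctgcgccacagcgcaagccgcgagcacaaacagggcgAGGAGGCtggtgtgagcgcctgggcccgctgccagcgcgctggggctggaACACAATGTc
The capitals mark a CEBP match (TTGCNNAA) near Babam2, a CTCF core near Bloc1s4, and both a CTCF core and a glucocorticoid receptor match upstream of Fkbp5. The Cfap44 window held no match to the exact letters of the motifs searched. A match shows only that these letters were present in the window. The lack of a match does not show that a site of the factor was absent.

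Regions listed in a single state were many in spleen, and most of them were weak. Fasting-only regions numbered 112446 of 225899 (49.8%, exact interval 49.6 to 50) and fed-only regions 93616 of 202948 (46.1%, 45.9 to 46.3). The median fasting-only and the median fed-only region had 14 tags at its summit, against 25 at regions that overlapped a region of the other state. The exact 95% Poisson interval of the tags lay above the weakest region of the other list, scaled for background, for 14.5% of fasting-only and 11.4% of fed-only regions. With q under 1e-06 the fasting-only regions numbered 6460 of 68877 (9.38%, 9.16 to 9.60) and the fed-only regions 5552 of 68036 (8.16%, 7.96 to 8.37), with a median of 21 tags in both. At this stricter threshold the lower bound of the tags exceeded the other list's weakest region for 67.3% and 66.6%. Of the stricter regions, 21.4% of fasting-only and 19.5% of fed-only regions lay within 200 bp of a region of the other state.

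Compared with the other tissues, spleen had the largest shares of regions in 1 state only at q under 0.01, where the other 7 tissues ranged from 18.9% to 44.7% for fed-only and from 19.2% to 38.8% for fasting-only regions. Some of those lists ended well before q reached 0.01, as in fed brown adipose at a −log10 q of 5.26 and fed kidney at 3.20. Such lists lacked regions as weak as those of spleen, so against them the shares are not like for like. At q under 1e-06 both spleen shares lay inside the range of the other tissues, 4.27% to 30.4% for fed-only and 1.63% to 13.6% for fasting-only. The fasting-only share exceeded the fed-only share in spleen at both thresholds. Within spleen, chromosome X had fewer regions of 1 state than any autosome, 26.6% in fed and 33.5% in fasting at q under 0.01, where the autosomes ranged from 40.5% to 48.7% and from 44.7% to 52.6%. The median summit on chromosome X had 22 tags in fed and 20 tags in fasting spleen.

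**Figure D1:**
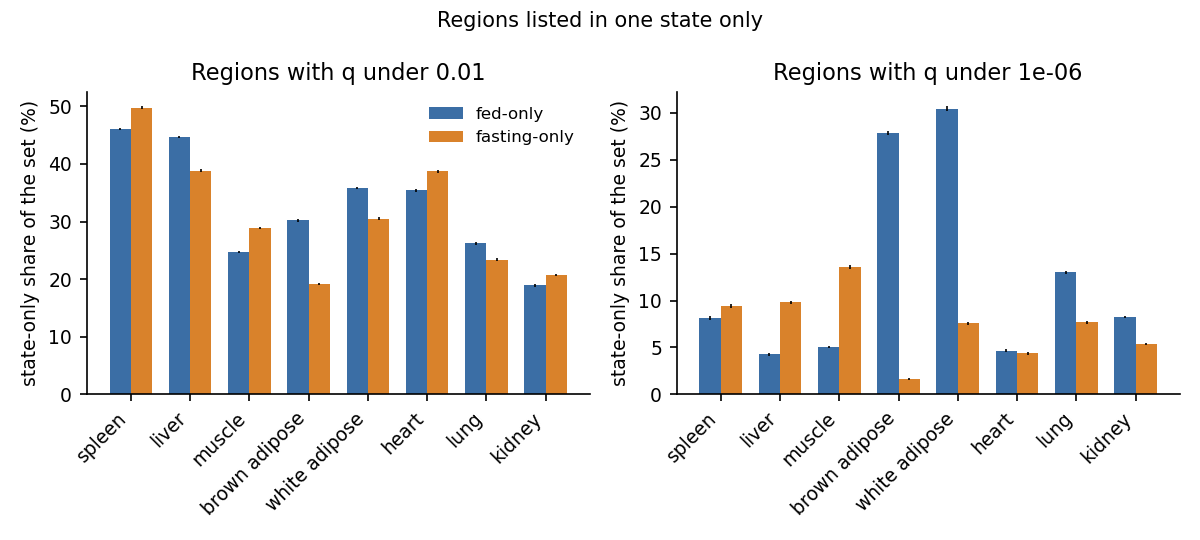
Bars give the percentage of each set that was listed in 1 state only, fed-only in blue and fasting-only in orange, by tissue, with q under 0.01 on the left and q under 1e-06 on the right. Thin lines are exact 95% binomial intervals. Spleen reached 46.1% and 49.8% on the left and 8.16% and 9.38% on the right.

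The regions of 1 state lay away from gene starts more often than the shared ones. A start lay within 3000 bp of 24.3% of fasting-only regions (24.1 to 24.6) and of 23.1% of fed-only regions (22.8 to 23.4), against 37.3% and 38.4% of the shared regions of the same lists. At q under 1e-06 these shares were 29.0% (27.9 to 30.1) and 26.8% (25.6 to 28.0), against 44.4% and 44.3%. Fasting-only regions thus lay at starts more often than fed-only regions, by 1.26 percentage points at the first threshold and by 2.24 points at the second.

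Fed-only spleen regions were found in other organs more often than fasting-only ones, by a small margin at q under 0.01. At q under 1e-06, 65.2% of fed-only regions (63.9 to 66.4) overlapped the set of at least 1 of the 14 libraries of other tissues, against 59.7% of fasting-only regions (58.5 to 60.9). The fed-only share was the higher in 13 of the 14 libraries, the exception being fed heart at 17.2% and 17.2%. Fed lung held 38.4% of fed-only and 28.3% of fasting-only regions, fasting lung 31.2% and 25.4%, and fed liver 24.3% and 16.8%. Lung, which also holds many leukocytes, had the largest overlaps in both states.

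The strongest regions of 1 state were not at lineage genes. The first fed-only region lay in an intron of Clip3, which encodes a microtubule-linked trafficking protein, 2803 bp from its start, with 50 tags (37.1 to 65.9) over 3.77 expected. The second lay between genes on chromosome 15 from 12795462 to 12795939, 22322 bp from the predicted gene 6030458C11Rik, with 46 tags. The others were an intergenic region near Gm15517 on chromosome 7 with 44 tags, a region 1410 bp from a start of Fanca, a DNA crosslink repair gene, on chromosome 8 from 123319912 to 123320044 with 56 tags, and an intron of Bmp2k whose nearest coding start was that of Paqr3 with 43 tags. These 5 regions were also found in 3 to 14 of the libraries of other tissues.

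Of the 5 strongest fasting-only regions, 1 lay in an intron of Tbc1d23, a gene of endosome to Golgi transport, on chromosome 16 from 57215612 to 57215780 with 43 tags (31.1 to 57.9) over 4.53 expected, 14486 bp from its start. Another overlapped an exon of the noncoding gene 5430425K12Rik on chromosome 13 from 80940510 to 80940693 with 52 tags, and its nearest coding start was that of Arrdc3 at 50069 bp. The region nearest to Zc3h12c, which encodes a regulator of cytokine transcripts, lay between genes (chr9:52278175-52278333) and 109670 bp from that start, with 37 tags (26.1 to 51.0), and it was found in 1 of the 14 libraries of other tissues. The remaining 2 lay near the predicted genes Gm21119 and Gm21731 with 42 and 35 tags. The nearest fed region lay 198 bp to 573 bp away for 4 of the 5, and 3344 bp away at Zc3h12c.

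At regions present in both states, most signals were alike and more were lower than higher in fasting. Overlapping regions were merged into 337688 loci, of which 108106 held regions of both states, and the 45099 with at least 60 tags in the 2 states together were compared by the log2 ratio of summit tags, fasting over fed, each divided by its background. The median was -0.09, the SD across loci 0.38, and Pearson's r of the log2 tags across these loci was 0.898, a description across loci of 2 libraries. The ratio was at least 0.5 at 2029 loci (4.50%) and at most -0.5 at 6358 loci (14.1%). When the ratios were centred on their median these shares became 7.20% and 10.2%, so rises made up 24.2% of the differing loci with the background as the scale and 41.5% with the median as the scale. Centred in the same way, the shares were 7.66% and 9.29% in kidney, 9.61% and 6.90% in heart and 9.67% and 12.3% in lung, and in liver, muscle and both adipose tissues they ranged from 12.3% to 17% in each direction.

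The widest differences at shared loci were at single sites. The intron of Babam2, a subunit of a DNA repair deubiquitinase complex, on chromosome 5 from 31905858 to 31906192 had 18 tags when fed and 76 when fasting, and its rank moved from 56.3 to 93.7 (log2 ratio 2.01, interval 1.26 to 2.84). The promoter of Appl2, an adaptor of insulin and adiponectin receptor signalling, had 15 and 51 tags and moved from 16.7 to 90.8 (1.70, 0.85 to 2.64). An intronic region 122 bp from a start of Kmt5b, a histone H4 methyltransferase, had 24 and 69 tags (1.46, 0.77 to 2.19). These 3 loci ranked below 60 in fed spleen and above 90 in fasting. The 5 largest rises in rank were taken among shared loci at 90 or above in 1 state. The other 2 of these rises lay in an intron of Garnl3 and near Rbm24, with 15 and 46 tags and with 14 and 41 tags.

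The largest fall in rank was at an intergenic locus 13816 bp from Cfap44, a gene of the ciliary axoneme, on chromosome 16 from 44484189 to 44484334. Its tags numbered 74 when fed and 13 when fasting, and its rank went from 94.9 to 5.06 (log2 ratio -2.57, -3.55 to -1.71). The next were loci near 4931429L15Rik with 43 and 12 tags, Bloc1s4 with 54 and 16, Smndc1 with 85 and 35, and Dad1 with 88 and 40. The last lay 7555 bp from Trac, the constant segment of the T cell receptor alpha chain. All 5 fall loci were away from promoters.

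B cell promoters ranked high in both states. A promoter was called when its rank differed by at least 10 points, which 10.1% of the 16690 coding genes with a listed promoter did upward and 8.95% downward. These shares are the background for each count of called promoters below. Where a promoter ranked at 90 or above in either state, 0.329% of 10951 genes were called, against 54.7% of the 5739 weaker ones, so a strong promoter could hardly be called. None of the 16 B cell genes was called, 13 of them at 90 or above, and their median shift was 1.40 points against 0.15 over all genes. The tag ratio lay above the median of all promoters (-0.05) at 14 of 16, with a median of 0.13. Fcer2a, the low-affinity IgE receptor of follicular B cells, had 71 tags in fed and 96 in fasting (log2 ratio 0.37, -0.09 to 0.83). Cxcr5, the receptor that guides B cells into follicles, had 70 and 92 (0.33, -0.14 to 0.80), and Cd79a had 65 and 85 (0.32, -0.16 to 0.81). The interval of each of these included 0. Summed over the 16 promoters there were 1609 tags in fed and 1798 in fasting spleen, a ratio of 0.09 (-0.00 to 0.19). The strongest region of a promoter could lie at different sites in the 2 states, which was so for 38 of the list genes listed in both, none of them B cell or T cell genes. Values given below as at the same site come from overlapping regions that were merged first. Blk, a Src family kinase of B cells, went the other way with 74 and 63 tags. Of the 129 quantified loci nearest to B cell genes 8 rose and 9 fell past 0.5, or 6.20% and 6.98%, with a median ratio of 0.01. Of all loci near a coding start 4.41% rose and 14.1% fell. Neighbouring loci on chromosome 18 from 60813313 to 60814812, assigned to Cd74, were among the rises, and some of them lay in Tcof1.

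T cell promoters showed a similar small upward shift with a wider spread. Their median shift was 2.32 points, and 2 of 20 were called, both upward. Tcf7, the transcription factor TCF-1 of naive and memory T cells, had 25 and 37 tags and moved from rank 67.3 to 82.4 (0.50, -0.27 to 1.29). The Cd4 promoter had 16 and 19 tags. Cd3e, a chain of the T cell receptor complex, had 20 and 19 tags and went from 75.6 to 65.9, which was just under the limit. Summed, the T cell promoters held 1156 and 1185 tags, a ratio of -0.03 (-0.15 to 0.09), since Gata3 and Cd5, the strongest of them, had fewer tags in fasting with 190 against 153 and 151 against 124. Among 86 loci nearest to T cell genes 8 rose and 10 fell, or 9.30% and 11.6%. The shares over all loci near a coding start were 4.41% and 14.1%. A pair of the T cell rises lay in Bcl11b, a T cell commitment factor, with 28 and 57 and with 27 and 54 tags.

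Antigen receptor loci, which were chosen after values had been seen, differed little. The heavy chain locus Igh held 1270 tags in fed and 1347 in fasting over 28 quantified loci (0.02, -0.09 to 0.13), the kappa locus Igk 1403 and 1386 over 29 (-0.08, -0.19 to 0.02), and the beta chain locus Trb 386 and 406 over 9 (0.01, -0.20 to 0.21). The Tra and Trd locus held 226 and 195 tags over 5 loci (-0.28, -0.56 to 0.00).

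Plasma cell genes had loci that differed in both directions. Derl3, which encodes a component of protein quality control in the endoplasmic reticulum of antibody-secreting cells, had 70 tags in fed and 115 in fasting at its promoter (0.65, 0.21 to 1.10), and a second locus 257 bp from a start had 27 and 48 (0.76, lower bound 0.06). In an intron of Tnfrsf17, the receptor BCMA, the tags were 21 and 42 (0.93, 0.15 to 1.76). Irf4 and Prdm1, transcription factors of antibody-secreting cells, had 4 differing loci each, among them falls from 91 to 58 tags near Irf4 (-0.72, -1.22 to -0.22) and from 67 to 44 near Prdm1 (-0.67, -1.26 to -0.10). Of the 54 quantified loci near the 8 plasma cell genes, 8 rose and 3 fell past 0.5, or 14.8% and 5.56%, where 4.41% and 14.1% of all loci near a coding start did. Sdc1, the surface proteoglycan used to mark these cells, had 65 and 58 promoter tags, and neither Jchain nor Tnfrsf17 had a listed promoter.

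NK cell genes and dendritic cell genes moved in both directions. Of 10 NK promoters 3 were called upward and 1 downward by the strongest region of each state. At the same site 3 were called upward and 3 downward, with Tbx21 at 39 and 25 tags and Nkg7 at 32 and 25 among the falls. Klrb1c, the receptor NK1.1, had 23 tags in fed at a site with no fasting region and 18 in fasting at another site, and Gzma, a granzyme of killer granules, had 19 in fasting at a site with no fed region and 14 in fed at another. Ncr1, an activating receptor, had 11 and 14 tags and moved from 5.40 to 44.4. A few tags moved the rank by over 10 points because weak regions lay close together in rank. Farther from the promoter, a Klrb1c locus on chromosome 6 from 128799132 to 128799339 had 44 and 93 tags (1.01, 0.48 to 1.57), and another from 128805208 to 128805403 had 163 and 106 (-0.69, -1.05 to -0.32). Of 9 dendritic cell genes, Siglech was called upward with 16 and 21 tags at the same site, Clec9a was called upward with 14 tags in fasting at a site with no fed region, and Flt3, a growth factor receptor of their precursors, had 62 and 59. The promoter of Zbtb46, a factor of conventional dendritic cells, had a locus with 84 and 54 tags (-0.70, -1.22 to -0.19).

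**Figure D2:**
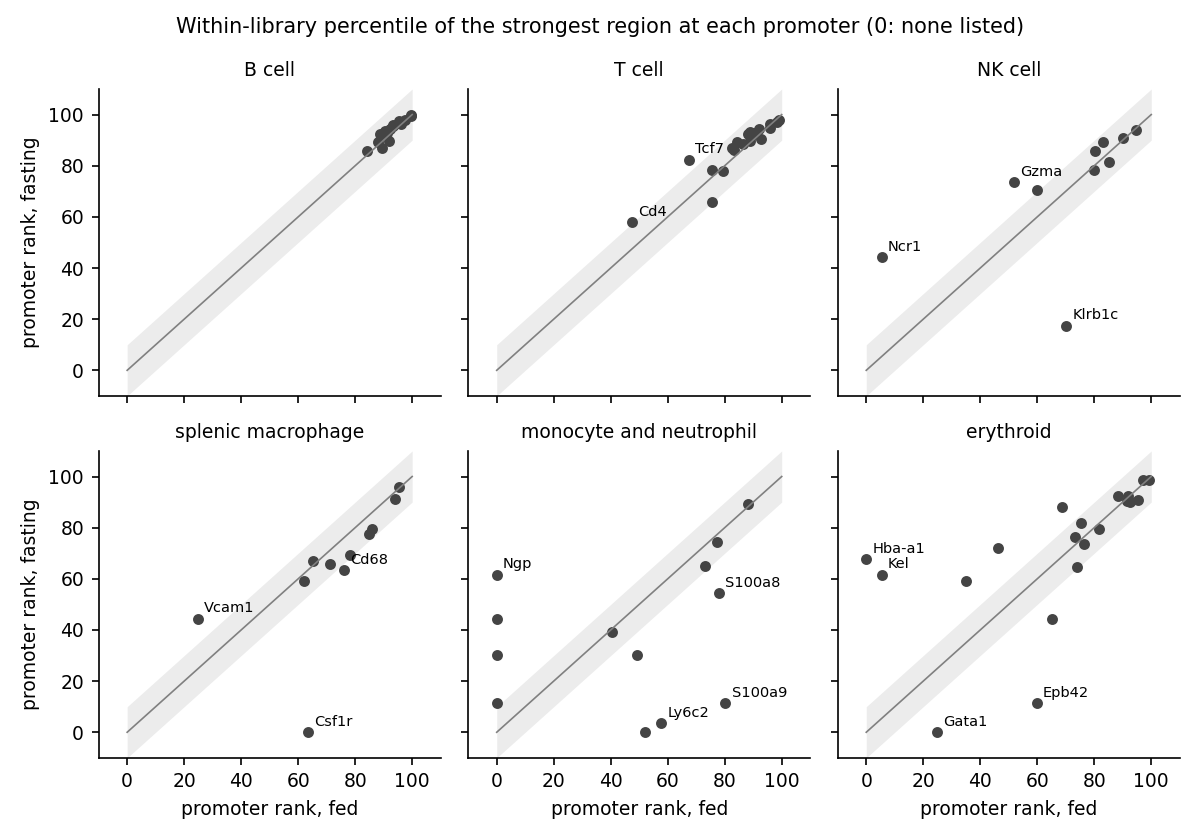
Each point is a gene of 1 of 6 lineage lists, with its promoter rank in fed spleen on the x axis and in fasting spleen on the y axis, both as within-library percentiles. The line marks equal ranks and the grey band shifts under 10 points. The point uses the strongest region of each state, which may lie at different sites. B cell genes lie in the band, at high ranks where few promoters can be called, while monocyte and neutrophil genes spread to both axes.

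Of the 11 listed macrophage genes 1 was called upward and 2 downward, with a median shift of -5.46 points. Csf1r, the receptor that macrophages need to survive, had 25 tags in fed and was listed at 0 in fasting spleen. Cd68, a lysosomal protein, had 37 and 34 tags with ranks of 76.0 and 63.3. Vcam1, an adhesion molecule of red pulp macrophages, had 14 tags in fasting at a site with no fed region. Spic, the factor that specifies red pulp macrophages, had 16 and 17. Over the 10 promoters listed in both states the tags summed to 349 and 308 (-0.25, -0.47 to -0.02), but 3 of them had their regions at different sites, and at the 9 with tags at the same site the sums were 323 and 295, with an interval that included 0 (-0.20, -0.43 to 0.04). Mertk, a receptor for dying cells, had 69 and 47 promoter tags (-0.62, -1.19 to -0.06) and Nr1h3, a sterol-sensing receptor, had 72 and 90 at the same site. Near these genes 0 of 24 quantified loci rose and 5 fell, or 20.8%, where 4.41% and 14.1% of all loci near a coding start did, with 3 of the falls near Adgre1, the F4/80 antigen.

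Of 13 listed monocyte and neutrophil genes, 4 were called upward and 5 downward. S100a9, an inflammatory calcium-binding protein, had 23 tags in fed and 12 in fasting, with ranks of 80.2 and 11.3 (interval -2.15 to 0.06), and its partner S100a8 had 21 and 15. Ly6c2, a marker of blood monocytes, had 24 and 20 tags with ranks of 57.8 and 3.50. Ngp, a granule protein of immature neutrophils, was listed at 0 in fed and had 16 tags in fasting. The 4 genes called upward, Ngp, Camp, Mpo and Retnlg, had no region in fed spleen and 12 to 16 tags in fasting spleen, near the end of the fasting list. The 8 promoters listed in both states summed to 192 and 164 tags (-0.29, -0.60 to 0.02), and the 6 with tags at the same site to 162 and 137 (-0.31, -0.65 to 0.03). Lists of 11 and 13 genes are short, and no share of calls here was tested against the 10.1% and 8.95% of all promoters.

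Erythroid promoters did not shift together. Of 20 listed erythroid genes, 5 were called upward and 3 downward, beside 10.1% and 8.95% of all promoters, with a median shift of 0.10. Epor, the erythropoietin receptor, had 21 tags in fed and 41 in fasting and moved from rank 68.7 to 88.0 (0.90, 0.11 to 1.73), the only called erythroid gene whose interval excluded 0. Rhd, a Rhesus blood group protein, had 79 and 46 (-0.85, -1.40 to -0.30) with ranks of 95.5 and 90.8, and a locus in its intron had 57 and 23 (-1.37, -2.14 to -0.65). Sptb, the spectrin beta chain of the red cell skeleton, had 82 and 45 tags at a locus 12462 bp from its start (-0.93, -1.49 to -0.39). Gata1, the master factor of the lineage, had 12 tags in fed and was listed at 0 in fasting. Kel, a blood group enzyme, had 11 and 16 tags, and Epb42, a membrane skeleton protein, had 15 in fed at a site with no fasting region. Hba-a1 was listed at 0 in fed and had 20 tags in fasting, and since Hba-a1 and Hba-a2 are near-identical copies the reads at either are uncertain. Of 25 quantified loci near erythroid genes 1 rose and 5 fell, against the 4.41% and 14.1% of all loci. Their summed tags were 1440 and 1295 (-0.22, -0.33 to -0.11). The tags of all loci near a coding start summed to -0.11 (-0.11 to -0.10), which the erythroid interval reached.

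None of the 9 promoters of haem and iron genes was called by rank, 6 of them at 90 or above, the median shift was 0.26 points, and Hmox1, which opens the haem ring, had 62 and 65 tags while Slc40a1, the iron exporter ferroportin, had 34 and 42. Blvrb, a biliverdin reductase, had 221 and 167 tags at ranks of 99.3 and 98.3 (-0.47, -0.77 to -0.17). Among all 19 quantified loci near these genes, promoters included, 0 rose and 5 fell, beside the same 4.41% and 14.1% of all loci. Slc48a1, which carries haem out of the lysosome, had 123 and 79 tags at a locus 1393 bp from a start (-0.70, -1.13 to -0.28), and Trf, the iron carrier transferrin, had 185 and 115 at a site 4043 bp from a start (-0.75, -1.10 to -0.41).

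Other cell groups were shorter lists. Of 8 megakaryocyte genes Itga2b, the platelet integrin, had 114 and 137 tags, Gp9 had 21 tags in fed and was listed at 0 in fasting, and Gp1ba had 11 and was listed at 0. A locus in an intron of Vwf, the clotting factor carrier, had 58 and 24 tags (-1.34, -2.09 to -0.63). Of 6 mast cell and basophil genes only Prg2 and Prss34 were listed, and Cpa3 was at 0 in both states. No stem and progenitor gene was called by the strongest region of each state, but at the same site Gata2, a factor of early blood cells, had 15 and 18 tags and its rank went from 33.6 to 60.4, and Kit, the stem cell factor receptor, had 27 and 25 tags. In the stroma list, 6 of 8 quantified loci were lower in fasting past 0.5, and 1 near Pdgfrb was higher with 22 and 38 tags. Of all loci near a coding start 14.1% were lower and 4.41% higher by this limit. The 6 lower stroma loci included a pair near Pdgfra with 81 and 42 and with 54 and 36 tags. They also included a pair at Col1a1 with 56 and 25 and with 82 and 57, and 1 near Tlx1, the factor needed to form a spleen, with 46 and 22. The 442 and 293 tags of all 8 stroma loci gave -0.66 (-0.88 to -0.44), where those of all loci near a coding start gave -0.11. At the promoters the rank calls of the stroma list were mixed, with 4 upward and 2 downward among 9. Those called upward, Tlx1, Cxcl13, Nkx2-5 and Des, had 14 to 18 tags in fasting at the same site. The 5 stroma promoters with tags in both states at the same site summed to 213 and 153 (-0.54, -0.85 to -0.24). Of 6 listed endothelial genes 2 were called upward, Kdr with 17 and 23 tags and Stab2 with 13 tags in fasting at a site with no fed region, and Pecam1, the junction protein CD31, had 69 and 60. Of the 5 listed acinar genes 2 were called upward and 1 downward, all at 16 tags or fewer, and of the 5 listed adipocyte genes 2 and 1, of which Cidec had 20 tags in fasting spleen and was listed at 0 in fed. The part of neighbouring tissue in the list differences was not tested.

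Among glucocorticoid target genes, neighbouring loci at Fkbp5 rose together. Fkbp5, a cochaperone of the glucocorticoid receptor and a classic target of it, had 10 quantified loci, of which 4 rose and 1 fell. The 4 rises lay side by side on chromosome 17 from 28512758 to 28518549, in an intron of Fkbp5 and upstream of a start. The locus upstream of that start had 99 tags in fed and 177 in fasting (0.77, 0.41 to 1.14), and an intronic locus had 53 and 112 (1.01, 0.53 to 1.51). The windows of both held the glucocorticoid receptor letters, as did that of a further locus, 5730 bp from the start, with 147 and 128 (-0.27, -0.62 to 0.09). The loci between and beside them had 57 and 96 (0.69, 0.20 to 1.19) and 35 and 52 (0.51, -0.14 to 1.17), and their windows did not hold the letters. At another start, 166 bp from the summit, the ratio was -0.04 (-0.44 to 0.36). The stretch was set by the 4 spleen rises, which fixed in advance a spleen ratio above the median of all spleen loci, here by 0.87. In every other tissue the ratio over it exceeded the tissue's own median too, by 1.23 in lung, 1.08 in brown adipose and 0.17 in white adipose.

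Other glucocorticoid targets split. Ddit4, an inhibitor of growth signalling, had 3 loci higher in fasting, of which the strongest had 53 and 93 tags (0.75, 0.24 to 1.26), and Tsc22d3, the glucocorticoid-induced leucine zipper, had 25 and 47 at a locus 21748 bp away (0.85, 0.12 to 1.61). Dusp1, a phosphatase of stress kinases, had 102 and 51 at a locus 692 bp from its start (-1.07, -1.58 to -0.57), and Sgk1, a kinase of ion transport, had 1 locus higher and 4 lower. Over the whole list, Fkbp5 included, 12 of 88 loci rose and 10 fell, or 13.6% and 11.4%. Of all loci near a coding start 4.41% rose and 14.1% fell. At the promoters 2 of 14 genes were called upward, Mt2 with 16 and 21 tags and Pdk4 with 16 and 20, and 1 downward, the metallothionein Mt1 with 48 and 30 (-0.74, -1.45 to -0.06).

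**Figure D3:**
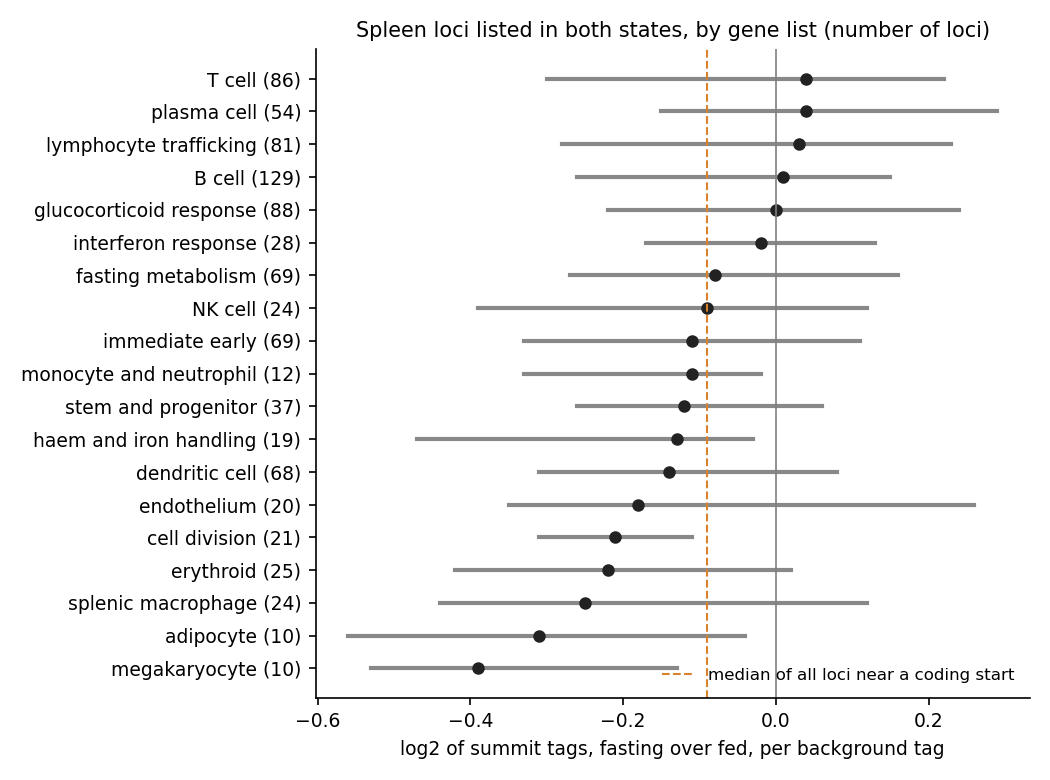
Points give, for each gene list with at least 10 quantified loci, the median log2 ratio of summit tags, fasting over fed, and grey bars the range between the quartiles of its loci. The dashed line is the median of all loci near a coding start (-0.09). T cell and plasma cell loci sit at 0.04 and megakaryocyte loci at -0.39.

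Genes of lymphocyte movement and of fuel use gave single differences. Of 8 trafficking genes 1 promoter was called, that of the chemokine Cxcl12, with 17 tags in fasting at a site with no fed region. S1pr1, which lets lymphocytes leave the spleen, had 143 and 160 promoter tags (0.10, -0.24 to 0.43), and Ccr9, a gut-homing receptor, had 23 and 31. Cxcr4, the receptor that retains cells in bone marrow, had 155 and 122 tags at its promoter (-0.41, -0.77 to -0.06) and 4 loci farther away that were higher in fasting, among them 53 and 99 (0.84, 0.34 to 1.35) and 69 and 115 (0.67, 0.23 to 1.12). None of the 10 fasting metabolism promoters was called by the strongest region of each state. Cpt1a, which admits fatty acids to mitochondria, had 164 and 113 promoter tags (-0.60, -0.96 to -0.25), and Slc25a20, the carnitine carrier of the same step, had 69 and 107 (0.57, 0.12 to 1.03). Angptl4, an inhibitor of lipoprotein lipase, had 73 and 67, and Acot1, a thioesterase of fatty acyl-CoA, 17 and 27 at the same site, a rise of 14.75 rank points that did pass the limit.

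Division, interferon and immediate early genes gave few promoter calls. None of the 10 cell division genes, all at 90 or above, was called. Mki67 had 184 and 175 tags, and Tyms, the thymidylate synthase of DNA precursor supply, had 65 and 36 (-0.92, -1.55 to -0.31). Summed tags of the list were 1305 and 1217 (-0.17, -0.28 to -0.05), where the median ratio of all promoters was -0.05. Of 10 interferon genes Oas1a was called upward with 11 and 19 tags at the same site and Isg15 downward, from 30 tags to no listed region, and Irf7, the amplifier of that response, had 109 and 103. None of the 8 immediate early genes was called, and all 8 ranked above 90 in fed spleen, as strong promoters that were rarely called. Fos had 107 and 100 tags, and Fosb, its relative, had 76 and 55 at the same site. Near them Nr4a1, an orphan receptor induced by activation, had 142 and 76 tags at a locus 13403 bp away (-0.97, -1.39 to -0.56), and Fos had 96 and 49 at 13023 bp (-1.04, -1.56 to -0.52).

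Shares of regions of 1 state near B and T cell genes lay below those of all regions at q under 0.01, and counts were small at q under 1e-06. Over all regions within 100 kb of a coding start, 48.2% of fasting and 44.8% of fed regions were listed in 1 state only at the first threshold, and 9.10% and 7.85% at the second. Near B cell genes 39.9% of 396 fasting and 33.6% of 336 fed regions were, near T cell genes 43.3% of 406 and 35.8% of 344, near erythroid genes 44.7% of 159 and 42.9% of 140, and near macrophage genes 49.2% of 130 and 49 of 109. At q under 1e-06 the counts were 15 of 160 fasting and 9 of 143 fed regions near B cell genes, 9 of 147 and 7 of 134 near T cell genes, 5 of 38 and 3 of 33 near macrophage genes, and 2 of 48 and 2 of 51 near erythroid genes. Immediate early genes had 11 of 76 fasting-only and 1 of 76 fed-only regions, and stem and progenitor genes had 5 of 57 and 13 of 67. Of the immediate early regions 5 lay near Jun and 3 near Fos, both subunits of AP-1, and of the 13 fed-only regions 6 lay near Runx1, a factor of early blood cells that also had all 5 of the fasting-only ones. Near dendritic cell genes the counts were 13 of 90 and 5 of 87, with 6 of the 13 near Tcf4, and near NK cell genes 5 of 46 and 0 of 38.

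Motif letters of several blood cell factors differed in frequency between fed-only and fasting-only regions. The 16 motifs were searched on both strands. Within 100 bp of the summit at q under 1e-06, the letters of PU.1 (GAGGAAGT), a factor of macrophages and B cells, were in 4.43% of fed-only regions (3.90 to 5.01) and 2.46% of fasting-only regions (2.10 to 2.87), where 3.20% of all 300-base RefSeq promoters held them. The IRF letters (GAAANNGAA), bound by interferon regulatory factors, were in 6.61% (5.97 to 7.30) and 4.55% (4.06 to 5.09), and the CEBP letters, bound by myeloid and metabolic factors, in 7.53% (6.85 to 8.25) and 5.67% (5.11 to 6.26). The EBF letters (CCCNNGGGA), bound by a B cell factor, went the other way with 3.28% (2.83 to 3.78) in fed-only and 4.61% (4.11 to 5.15) in fasting-only regions. The E-box letters were in 15.1% (14.1 to 16) and 17.3% (16.4 to 18.3). The intervals did not overlap for these 5 motifs. They overlapped for the erythroid motif of GATA factors, letters AGATAA, at 7.24% and 6.76%, for AP-1 (TGANTCA) at 6.32% and 6.13%, for the glucocorticoid receptor letters at 7.29% and 7.46%, for the CTCF core at 18.6% and 18%, and for RUNX (TGTGGTT) at 6.09% (5.47 to 6.75) and 4.98% (4.47 to 5.54). Of the 32817 RefSeq promoters 8.55% held the IRF letters, 10.8% those of CEBP, 6.56% EBF, 16.3% the E-box, 11.2% GATA, 7.81% AP-1, 6.85% the glucocorticoid receptor, 29.3% the CTCF core and 5.27% RUNX. The other motifs were OCT (ATTTGCAT), NF-kB (GGGANTTCC), TCF (CTTTGAT), KLF (CCACACCC), NFE2 (TGCTGAGTC, which overlaps AP-1) and NRF1 (GCATGCGC), held by 1.74%, 1.68%, 3.73%, 3.56%, 0.424% and 2.71% of promoters. Regions shared by both states held PU.1 letters in 6.35% of fed and 6.07% of fasting ones, above regions of either single state. In the same order they held EBF in 4.73% and 4.90%, IRF in 6.09% and 5.73%, CEBP in 6.76% and 6.42% and the E-box in 15.9% and 16.3%. The EBF share of fasting-only regions was thus no higher than that of shared ones. Promoters of 300 bases are not a like reference for windows of 201 bases.

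Base composition moved with the state as well. At q under 1e-06 the windows averaged 50.2% GC in fed-only and 52.6% in fasting-only regions. Within windows of 45% to 55% GC, PU.1 letters were in 5.04% of 3350 fed-only (4.33 to 5.84) and 2.43% of 3748 fasting-only regions (upper bound 2.97). Below 45% GC the PU.1 shares were 3.41% (2.40 to 4.69) and 3.05% (1.85 to 4.72). From 55% GC they were 3.57% (2.58 to 4.82) and 2.35% (1.74 to 3.09), so the intervals overlapped outside the middle range. The EBF shares in windows of 45% to 55% GC were 3.22% (2.65 to 3.88) and 3.76% (3.18 to 4.42), and those of CEBP 7.97% (7.08 to 8.94) and 6.24% (5.49 to 7.07). For IRF they were 6.09% (5.30 to 6.95) and 4.78% (4.12 to 5.51). From 55% GC the IRF order was turned, with 2.35% (1.56 to 3.41) in fed-only and 3.21% (2.49 to 4.06) in fasting-only regions. Among regions over 3000 bp from a start, PU.1 letters were in 4.45% of fed-only and 2.70% of fasting-only regions.

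The PU.1 and CEBP shares were also counted in the other tissues. In lung PU.1 letters were in 6.02% of fed-only (5.64 to 6.42) and 1.75% of fasting-only regions (1.47 to 2.07), and in white adipose the order was turned, with 1.91% (1.78 to 2.05) and 3.89% (3.40 to 4.42). The CEBP share of fasting-only regions was above that of fed-only regions in each of the other 7 tissues, by 0.094 points in brown adipose to 12.3 points in white adipose, and lower in spleen, by -1.86 points.

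**Figure D4:**
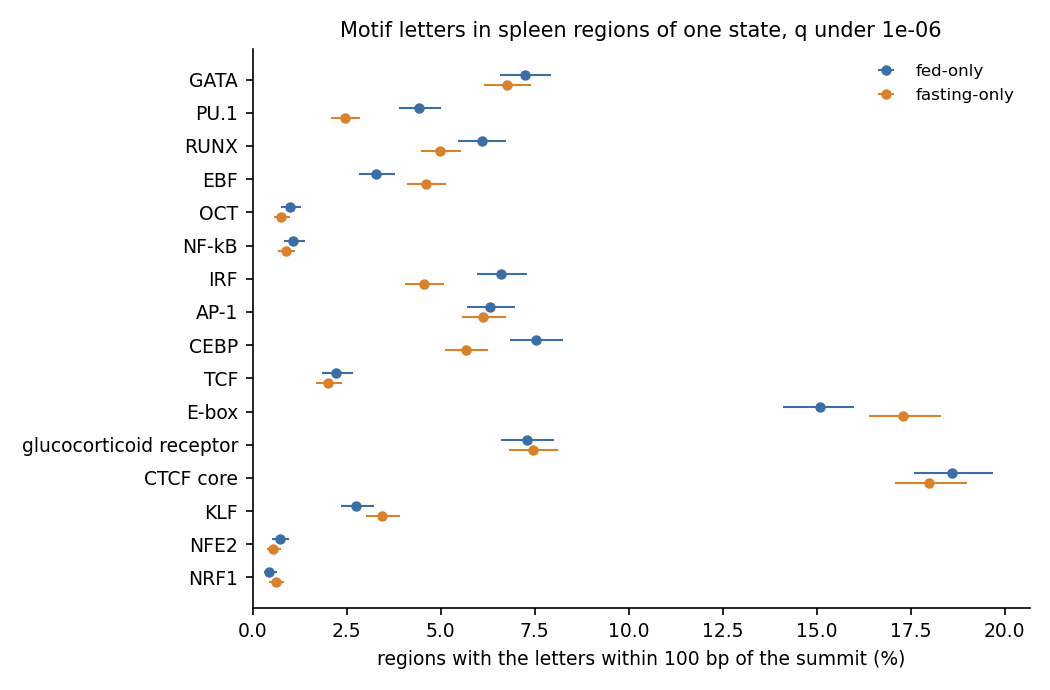
Points give the percentage of spleen regions of 1 state, at q under 1e-06, that held each motif's letters on either strand within 100 bp of the summit, fed-only in blue and fasting-only in orange. Lines are exact 95% binomial intervals. PU.1, IRF and CEBP lie higher in fed-only regions, and EBF and E-box in fasting-only regions.

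At shared loci the letters of the CTCF core were more frequent where tags were lower in fasting. Among quantified loci over 3000 bp from a start, the CTCF core was in 34.1% of the 4116 that fell past 0.5 (32.6 to 35.5), in 3788 of the 16489 between (22.3% to 23.6%) and in 19.4% of the 1094 that rose (17.1 to 21.8). Read the other way, 26.0% of the 5402 distal loci with the letters fell, against 16.7% of those without, and the median ratio was -0.22 and -0.11. Near starts the share was 36.8% at falls, 31.8% between and 234 of 935 at rises. With only summits outside soft-masked repeats the shares were 35.9%, 23.5% and 20.1%. The GC content of the distal windows was 50.7% at falls, 52.0% between and 52.3% at rises. PU.1 letters were rarer at falls, and 11.5% of the 1846 distal loci that held them fell and 4.93% rose, against 19.7% and 5.05% of the others. The glucocorticoid receptor letters were in 6.34% of distal falls (5.62 to 7.13), 7.64% between and 9.87% of rises (8.17 to 11.8). E-box letters were in 14.7% (13.6 to 15.8), 18.2% and 21.6% (19.2 to 24.1). GATA letters were more frequent at falls, with 7.87% (7.07 to 8.74), 6.58% between and 5.39% of rises (4.13 to 6.90).

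With the ratios centred on the median of each tissue, the CTCF core share at distal falls exceeded that at rises by 15.9 points in spleen and by 12.3 in liver, 7.23 in lung, 5.47 in muscle, 5.35 in white adipose and 2.12 in brown adipose, while in heart and kidney the difference was -2.02 and -1.10 points. The tag minimum for a locus was the same in each tissue. The genome background, however, was 3.21 tags in fed spleen, 2.80 in fed liver and 12.8 in fed brown adipose. Quantified loci numbered 45099 in spleen and 100163 in brown adipose, so the tissues are not ranked like for like. With that limit, the spleen difference was the largest of the 8 tissues, with no replicate to give its error between mice. Since CTCF sites are shared by most cell types, the letters do not name a lineage, and the part of depth, of fragment length or of nuclei quality in this difference was not tested.

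**Figure D5:**
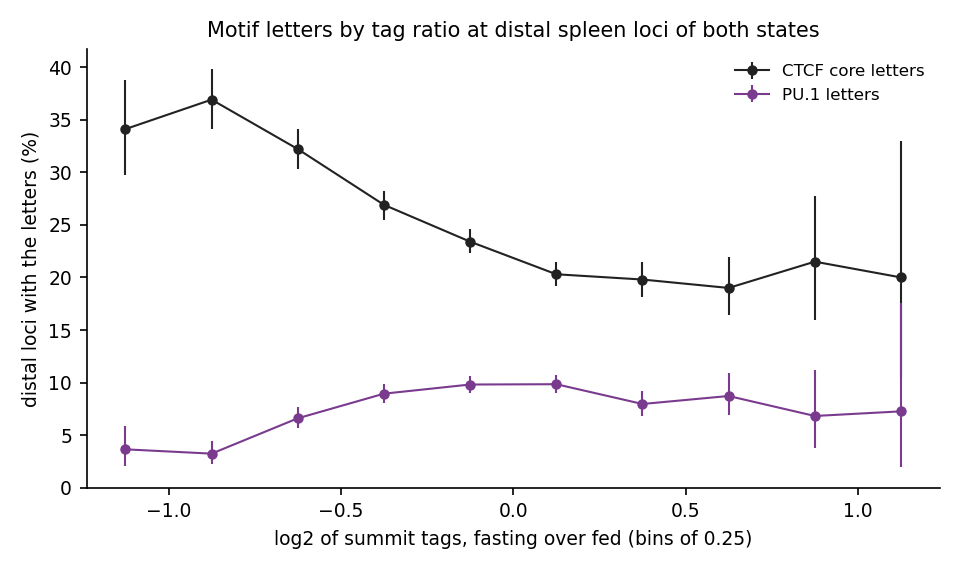
The x axis bins distal spleen loci of both states by the log2 ratio of summit tags, fasting over fed, in steps of 0.25, and the y axis gives the percentage of loci in a bin that held the letters of the CTCF core (black) or PU.1 (purple) with exact 95% intervals. The CTCF share goes from 36.9% in the bin that ends at -0.75 to 19.8% in the bin that ends at 0.50.

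Single promoters at the extremes of rank showed how the window shaped a shift. Over all coding genes the largest rises were at Tmc4, Lalba, Oxtr, Serpinb1b and Gucy2e, each from 0 in fed to between 84.4 and 98.2 in fasting, and the largest falls at Tnnc1, Cdhr2, Phox2a, Cyp4f14 and 4932438H23Rik. At Tmc4, a channel-like membrane protein, the fasting region of 142 tags overlapped a fed region of 141 tags that ended outside the 1000 bp window around the start, and at Tnnc1, the slow muscle troponin C, the fed region of 96 tags overlapped a fasting region of 93. In 8 of these 10 genes the region overlapped a region of the other state in this way. The exceptions were Cyp4f14, a cytochrome P450, with 26 tags in fed and no fasting region within 8361 bp, and 4932438H23Rik with 23 tags and the nearest fasting region at 948 bp. When overlapping regions were merged first, the largest rises were Rgs7, Cpne4, Fign, Col1a2 and Ednra with 26 to 31 tags in fasting and none listed in fed, the largest falls Acy3, Rbfox3, Mtss1l, Gng4 and Cyp4f14 with 26 to 35 tags in fed, and all 52 list genes that had been called stayed called in the same direction. A further 10 list genes were then called, 8 downward and 2 upward, among them the falls of Tbx21, Nkg7, Ank1 and Itgax and the rises of Gata2 and Acot1.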

How the data were processed

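ATAC-seq was measured in 1 library per tissue and state, each from powdered tissue pooled over several mice, so groups hold 1 sample and no test was run. The authors trimmed adapters, ran a standard ATAC-seq pipeline with Bowtie2 alignment against GRCm38, removal of duplicates and MACS2 peak calls, and the tool versions are not given in the sources used here. As deposited, each peak row holds a score, a summit offset, a fold enrichment over the local background (a ratio), a −log10 p and a −log10 q, as the authors' peak caller wrote them, and each list was limited to about the same number of rows. Rows of 1 region were merged and its strongest summit kept. Summit tags were recovered from the fold and p together, and came out whole within 0.001 for 100.000% of fed and 99.999% of fasting spleen regions. Tags stand for depth here, as total reads are not in the peak lists, and they were divided by the genome background before log2 ratios were taken. Exact binomial and Poisson intervals at 95% cover counting error only, and regions are not independent.

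A promoter rank was that of the best region within 1000 bp on either side of any GENCODE vM21 start of a coding gene, the best regions of the 2 states could lie at different sites, a shift of at least 10 rank points was called, and loci within 100 kb were assigned to the nearest coding start. By rule, the text names from each of 22 gene lists the first gene and up to 3 members with the largest rank shift, the 5 strongest regions of each state alone at q under 1e-06, and the 5 largest rises and falls of rank among overlapping pairs with a rank of at least 90 in 1 state and among all coding promoters. Other list members and loci named were chosen after their values were seen. Members and lists were chosen with earlier results of these data known. The set threshold, overlap rule, promoter and motif windows, rank basis, tag minimum and centring were varied. Sequences came from the RefSeq GRCm38.p6 genome. A gene and some sequences are not reported here. Python 3.11.15, numpy 2.4.6, pandas 2.3.3, scipy 1.17.1 and matplotlib 3.10.9 were used, and the scripts were tested on simulated data.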

Additional observations from a re-analysis of the deposited data

Results flagged for a closer look

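Median promoter rank shifts, fasting minus fed, of 7 gene lists had opposite signs in spleen and in lung, which came from the same mice. No difference between the tissues was tested, as each state was 1 library. The B cell list had 1.40 points in spleen and -9.70 in lung, the T cell list 2.32 and -30.37, and the NK cell list 3.23 and -24.72. The dendritic cell list had 1.69 and -1.0 points. The signs were turned for the monocyte and neutrophil list, at -2.77 in spleen and 3.17 in lung, the spleen stroma list at -3.03 and 1.18, and the adipocyte list at -7.12 and 3.0. At quantified loci the median log2 tag ratio of the B cell list was 0.01 in spleen and -0.42 in lung, and that of the T cell list 0.04 and -0.29, where all loci had -0.09 and 0.11.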

How the results depend on the processing

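No paired analysis was possible because each state was 1 library. With q under 1e-06 the fasting-only regions numbered 6460 (9.38%) and the fed-only regions 5552 (8.16%), the promoter share of fasting-only minus fed-only regions was 2.24 points, and the CTCF core difference turned from 0.64 to -0.62 points. With the 50000 strongest regions as the set, 1153 (2.31%) and 1045 (2.09%) were in 1 state only. When an overlap had to cover 50% of both lengths the shares were 61.1% in fasting and 58.1% in fed. The fasting share was 51.9% when only the other set counted and 50.2% with equal numbers of strongest regions, and the fed share was 46.3% on autosomes. Tag rises made up 7.20% of shared loci after centring on the median and 2.22% with at least 100 tags, where the CTCF core share at falls exceeded that at rises by 20.01 points. Median promoter shifts turned to -0.60 (dendritic cell) and 10.88 (spleen stroma) with summits within 3000 bp of a start, and to 0.46 (monocyte and neutrophil) and 1.42 (megakaryocyte) with ranks within the set. For the main region counts, promoter shares, tag ratios and CTCF core shares at shared loci, 17 alternatives moved and 16 did not. Of the remaining values for single lists and motifs, 142 moved and 367 did not. Some of these alternatives were chosen after seeing the data. The causes were not tested, and with 1 library per state the spread between mice is unknown.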
